A study of Macaca mulatta with 16 samples.

Results

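Microdissected layers of extraocular muscle were compared with whole rectus muscle of adult rhesus macaques on a pair of human array types, U133A and U133B, which carry largely different probe sets. A probe set is a group of short probes that together measure 1 transcript, and many genes have several. The arrays were chosen by their titles, and all 16 arrays of the series entered: on each array type, 4 layer arrays (2 of the orbital layer and 2 of the global layer) against 4 whole muscle arrays (2 of lateral rectus and 2 of medial rectus). Layer tissue was cut out by laser and its RNA was amplified with T7 polymerase before the array protocol, whereas whole muscle RNA followed the standard protocol, per the labels. Microdissection and amplification therefore went with the layer group on all 8 layer arrays, and on these arrays tissue and preparation cannot be told apart. The labels do not say whether the arrays of a group came from separate animals. A p-value here therefore measures the spread between these samples alone, which may be technical. The labels describe U133A and U133B as a set, so the arrays of both types may carry the same RNA and were not treated as independent samples. The labels of 2 arrays were unclear: orbital layer replicate 1 of U133A is titled as orbital but sourced as global, and the source of global layer replicate 1 of U133B does not say which layer it is. Both of these arrays belong to the layer group under either label.

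Extraocular muscles move the eye. Their thin orbital layer, on the side of the orbit, holds small, highly oxidative fibres in a dense capillary bed, and their global layer inserts on the eyeball and holds larger fibres of several types. They keep contractile proteins that other adult muscles lose after development, among them the perinatal myosin heavy chain MYH8. In T7 amplification, RNA is copied from a primer on its poly(A) tail and transcribed again, a step known to shorten the copies towards their 3' end. A whole muscle also holds nerve, vessels, connective tissue, blood and any tissue attached to it. In such bulk samples, fewer cells of a type and less RNA per cell cannot be told apart. Values here are intensities, in the units to which the authors scaled each array, and differences are log2 values of the layers minus whole muscle, tested with limma.

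The layer arrays were dimmer and had a steeper 3' signal. On U133A the layers had a median intensity of 525 ± 46.3 (SD, n = 4) units against 814 ± 27.4 for whole muscle. On U133B the medians were 677 ± 33.3 and 957 ± 36.7. For ACTB, which encodes beta-actin, the 3' probe set read 4.22 ± 1.59 times as bright as the 5' one in the layers of U133A and 0.870 ± 0.136 times in whole muscle. On U133B these ratios were 4.22 ± 0.822 and 0.754 ± 0.188. For each of these comparisons the exact permutation test gave p = 0.0286 (two-sided), the smallest that 4 arrays against 4 allow, and the groups did not overlap. For GAPDH the ratio was 2.04 ± 0.624 and 1.20 ± 0.314 on U133A, where the groups overlapped (exact p = 0.0571), and 3.15 ± 1.06 and 1.43 ± 0.274 on U133B (exact p = 0.0286). The part of these values in the differences between the groups was not tested.

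Of the 4 genes that stood for this comparison, MYH8, RTN4IP1 and CXCL14 were higher in the layers and TRARG1 was lower, CXCL14 on only 1 of its 2 probe sets. These 4 genes were picked from earlier results of the same arrays, so their values are a description. MYH8 had intensities of 32978 and 43279 units in the orbital layer and 32129 and 29114 in the global layer on 206717_at of U133A. Lateral rectus gave 6659 and 6804 units, and medial rectus 8146 and 6547. Every layer array lay above every whole muscle array, as in 1829 of the 11524 tested probe sets of U133A. The log2 difference was 2.28 ± 0.16 (adjusted p = 5.6e-06). On 34471_at, which also measures MYH8, the groups were apart again: its values were 39603 to 51338 units in the layers and 12732 to 24006 in whole muscle, and the difference was 1.42 ± 0.21 (adjusted p = 0.00034).

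RTN4IP1, a mitochondrial oxidoreductase, read 6768 and 5565 units in the orbital layer and 13975 and 8936 in the global layer on its only tested probe set, 224509_s_at of U133B. Lateral rectus gave 331 and 155 units, and medial rectus 173 and 212. Its values in whole muscle lay near the floor of 218 units under which intensities were not told apart, and the difference was 5.09 ± 0.36 (adjusted p = 3.6e-06). TRARG1, a protein of the vesicles that carry the glucose transporter GLUT4, ran the other way on 239523_at of U133B, with 308 and 186 units in the orbital layer, 172 and 292 in the global layer, 5817 and 4752 in lateral rectus and 4913 and 3515 in medial rectus and a difference of -4.19 ± 0.36 (adjusted p = 7.4e-06). In the layers 2 of its 4 values were under the floor. CXCL14, a chemokine, had 16651 and 9811 units in the orbital layer, 10785 and 4606 in the global layer, 439 and 491 in lateral rectus and 338 and 290 in medial rectus on 222484_s_at of U133B, a difference of 4.64 ± 0.38 (adjusted p = 4.7e-06). On U133A its probe set 218002_s_at gave 1347 and 871 units in the orbital layer and 671 and 392 in the global layer. Lateral rectus gave 257 and 626 units, and medial rectus 1114 and 525. There the groups overlapped and the difference of 0.43 ± 0.50 (adjusted p = 0.5) did not pass the threshold, so the 2 probe sets of CXCL14 gave different answers.

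**Figure D1:**
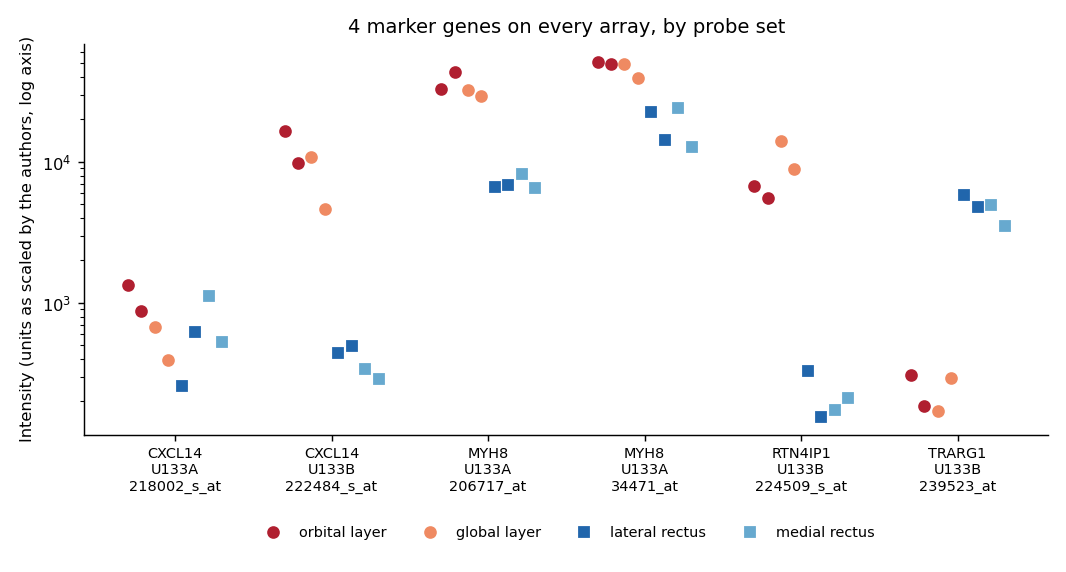
Intensity (log axis, units as scaled by the authors) of the 4 marker genes on each array, by probe set; circles are layer arrays and squares are whole muscle arrays. Layer and whole muscle arrays are apart for both MYH8 probe sets, RTN4IP1, TRARG1 and the U133B probe set of CXCL14, and overlap for the U133A probe set of CXCL14.

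Across all probe sets, differences were common. On U133A, 5680 of 11524 tested probe sets (49.3%) passed an adjusted p of 0.05, of which 2076 (18.0% of those tested) were higher in the layers and 3604 (31.3%) were lower. On U133B, 5045 of 11975 (42.1%) passed, with 2262 (18.9%) higher and 2783 (23.2%) lower. Groups without overlap were common too. All layer arrays lay above all whole muscle arrays for 1829 tested probe sets of U133A and below them for 3244. On U133B these numbers were 2101 and 2583. The median over all tested probe sets was below 0 at this scaling, at -0.23 on U133A and -0.28 on U133B. The split moved with the scaling. The share of calls that were higher was 36.5% on U133A and 44.8% on U133B with the intensities as scaled, 51.5% and 55.6% after quantile normalization (2286 higher and 2151 lower on U133A, 1996 and 1591 on U133B), and 59.5% and 69.4% after centring each array on its median (3306 and 2247, and 3044 and 1342). With centring, the median over all probe sets was 0.11 and 0.08.

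The direction of a probe set went with its brightness. The tested probe sets of each table were put into 5 equal groups by their mean intensity over all 8 arrays. In the brightest group of U133A the median difference was 0.38, and 42.7% were called higher and 12.0% lower. In the dimmest group the median was -0.69, with 7.20% higher and 36.3% lower. On U133B the corresponding medians were 0.78 and -0.63. The mean over all arrays contains the layers' own values, so the probe sets were also ordered by their level in whole muscle alone. From the next-to-dimmest to the brightest group the medians then ran -0.62, -0.52, -0.30 and 0.18 on U133A, and -0.62, -0.62, -0.59 and 0.01 on U133B. The dimmest group in that order had medians of 0.09 and 0.43, with 21.7% higher and 9.24% lower on U133A and 24.7% and 0.13% on U133B. The filter on low values used the mean of all 8 arrays. Probe sets dim in whole muscle therefore passed it more readily where the layers were bright. After quantile normalization the medians of the 5 groups lay between -0.09 and 0.05 on U133A and between -0.17 and 0.23 on U133B.

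**Figure D2:**
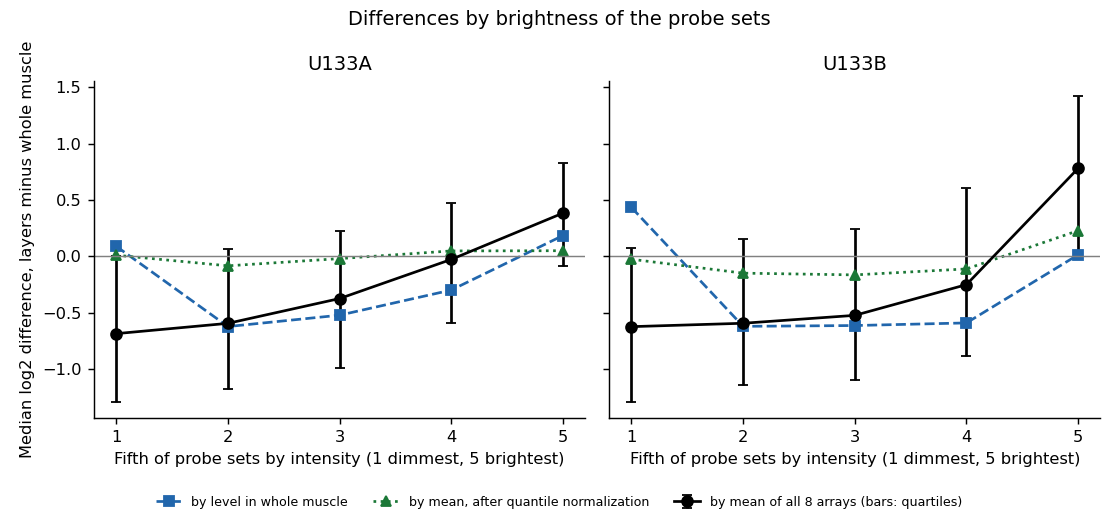
Median log2 difference (layers minus whole muscle) in 5 equal groups of the tested probe sets from dimmest to brightest, on U133A and U133B; black circles order probe sets by their mean over all 8 arrays, with bars from the lower to the upper quartile, blue squares by their level in whole muscle, and green triangles give the quantile-normalized values in the black order. The black line climbs to 0.38 on U133A and 0.78 on U133B, and the green line stays nearer to 0.

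Whether a gene's difference could be repeated depended on which probes measured it. The array types share 100 probe sets that were tested on both. For these the log2 differences on U133A and U133B had Pearson's r of 0.88 and Spearman's rho of 0.85, 82 of 100 had the same sign, and 38 of the 39 called on both tables were called the same way. Their median difference was nevertheless 0.27 on U133A and 1.05 on U133B, so the same probe set read higher in the layers on U133B, by a median of 0.77. On U133A 35 of the 100 were called higher and 12 lower, and on U133B 74 and 3.

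Different probe sets of 1 gene went together far less. For the 2 brightest tested probe sets of a gene on U133A, r was 0.18 over 1908 genes and 55.8% had the same sign; of 507 pairs with both called, 320 (63.1%) were called the same way. On U133B, r was 0.16 over 1684 genes, 53.0% had the same sign and 234 of 380 called pairs (61.6%) went the same way. In the brightest of 3 equal groups of these pairs, ranked by the dimmer probe set, 147 of 204 called pairs went the same way on U133A and 158 of 222 on U133B. Between the tables, r was 0.04 over 1785 genes measured by different probe sets, 898 of them (50.3%) had the same sign, and of 410 called on both 209 were called the same way. These correlations are across genes, which are not independent replicates, and the members of each pair share their arrays, or possibly their RNA, and their scaling.

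**Figure D3:**
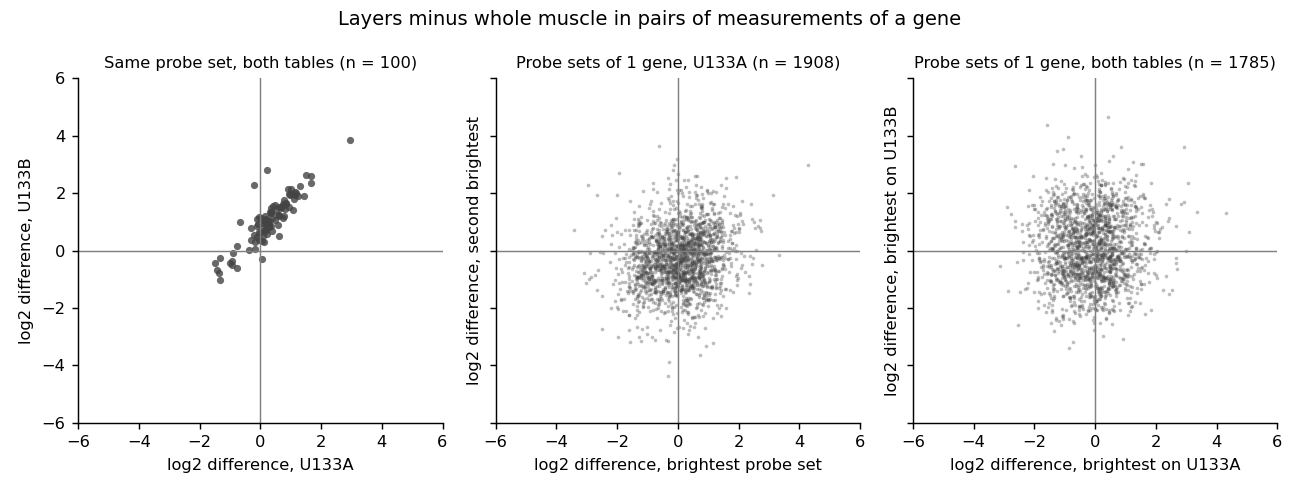
Log2 differences (layers minus whole muscle) in pairs of measurements; each point is 1 probe set measured on both tables (left, n = 100), 1 gene by its 2 brightest U133A probe sets (middle, n = 1908), or 1 gene by different probe sets on U133A and U133B (right, n = 1785). The points of the left panel follow a rising line (r = 0.88), and those of the middle (r = 0.18) and right panels (r = 0.04) form round clouds.

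Of 4439 genes with at least 2 tested probe sets over both tables, 188 had every one called higher (4.24%), 204 every one called lower (4.6%), and 711 (16.0%) had probe sets called in opposite directions. All probe sets had the same sign in 1899 genes (42.8%), above 0 in 810 and below 0 in 1089. For 11 of the 188 genes the measurements were 1 probe set repeated on both tables. After quantile normalization, 184 genes had all tested probe sets called higher and 98 lower, and after centring 391 and 84. Of 1848 genes tested on both tables by their brightest probe set, 140 were higher on both (7.58%), 93 were lower on both (5.03%) and 201 were called opposite ways (10.9%). Among genes tested on both tables, 118 were higher and 51 lower on both after quantile normalization, and 264 and 28 after centring.

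Among genes with all probe sets higher, those with the largest median difference were HHIP, UTP4, FBXO33, KIZ, ZNF462, PCSK5, LCOR, POGLUT1, ATXN1L and AZI2. On their 20 probe sets the log2 differences ran from 1.27 to 5.68. Of these 20 calls, 20 were also made after quantile normalization and 20 after centring, and 1 was lost when a single array was left out. That was the U133B call of POGLUT1, an enzyme that adds glucose to Notch, on 222681_at (1.62 ± 0.53, adjusted p = 0.025), which did not pass without global layer replicate 2, replicate 1 or 2 of lateral rectus, or replicate 1 or 2 of the orbital layer (adjusted p up to 0.065). UTP4, a factor in making the small ribosomal subunit, read 10470 and 12326 units in the orbital layer and 15152 and 13118 in the global layer on 224903_at of U133B. Lateral rectus gave 1265 and 2695 units, and medial rectus 948 and 599. Its other probe set, 230656_s_at, gave 5508 and 6611 units in the orbital layer and 6418 and 10727 in the global layer. Lateral rectus gave 418 and 715 units, and medial rectus 437 and 858. The groups did not overlap on either, and the differences were 3.42 ± 0.37 (adjusted p = 3.3e-05) and 3.61 ± 0.33 (adjusted p = 1.1e-05). KIZ, a protein that stabilises the poles of the mitotic spindle, was measured on both tables without overlap of the groups. It had 3150 and 3504 units in the orbital layer and 2510 and 4631 in the global layer on 219961_s_at of U133A. Lateral rectus gave 335 and 455 units, and medial rectus 339 and 493. On 228291_s_at of U133B its values were 4840 to 10202 units in the layers and 695 to 2171 in whole muscle. Its differences were 3.07 ± 0.25 (adjusted p = 1.3e-05) and 2.37 ± 0.35 (adjusted p = 0.00028). HHIP, which binds and blocks hedgehog ligands, differed by 5.68 ± 0.32 (adjusted p = 1.1e-06) on 237466_s_at but by 1.87 ± 0.40 (adjusted p = 0.003) on 230135_at, both on U133B and both without overlap. On 237466_s_at the value in lateral rectus replicate 2, 134 units, was under the floor of 218, so that difference was limited by the floor. For ZNF462, a zinc finger protein, the 2 U133B probe sets gave 3.82 ± 0.35 (adjusted p = 1.2e-05) and 1.27 ± 0.26 (adjusted p = 0.0023). PCSK5, a protease that processes hormones and growth factors, gave 3.14 ± 0.23 (adjusted p = 6.4e-06) and 1.94 ± 0.56 (adjusted p = 0.013) on U133A.

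Genes with all probe sets lower were led by RAB11B, NRAP, TRIM14, LOC145845, RPL37A, ITCH, PLA2G12B, GPR15LG, SYT7 and GLYCTK. On their 22 probe sets the log2 differences ran from -4.36 to -0.32. Of these 22 calls, 18 were also made after quantile normalization and 18 after centring, so that not all of these genes kept all their probe sets lower. The calls on 226167_at of SYT7 (-1.57 ± 0.52, adjusted p = 0.028) and 227735_s_at of GPR15LG (-1.61 ± 0.54, adjusted p = 0.029) passed neither after quantile normalization (-1.03 and -1.44) nor after centring (-1.21 and -1.25). Each was also lost in 4 of the 8 fits that left out 1 array: that of SYT7 without global layer replicate 1, orbital layer replicate 2 or either medial rectus array (adjusted p up to 0.067), and that of GPR15LG without global layer replicate 1, medial rectus replicate 1 or either lateral rectus array (adjusted p up to 0.083). The call on 242341_x_at of GLYCTK (-2.07 ± 0.58, adjusted p = 0.013) did not pass after quantile normalization (-1.57). NRAP anchors the ends of myofibrils, and it was lower on 3 probe sets over both tables. On 207089_at of U133A it had 362 and 591 units in the orbital layer and 170 and 592 in the global layer. Lateral rectus gave 1954 and 2888 units, and medial rectus 1254 and 3484. On 235313_at of U133B it had 1110 and 1012 units in the orbital layer and 588 and 1116 in the global layer. Lateral rectus gave 6872 and 8322 units, and medial rectus 3231 and 5205. The differences were -2.54 ± 0.44 (adjusted p = 0.00079), -2.59 ± 0.34 (adjusted p = 0.00013) and, on 235312_s_at, -1.12 ± 0.31 (adjusted p = 0.011), and on none of the 3 did the groups overlap. The call on 235312_s_at did not pass after centring (-0.76). ITCH, a ubiquitin ligase, was lower on 3 U133A probe sets, at -2.25 ± 0.26 (adjusted p = 9.3e-05) on 209743_s_at, -1.34 ± 0.17 (adjusted p = 0.00014) on 209744_x_at and -2.56 ± 0.44 (adjusted p = 0.00079) on 217094_s_at. RAB11B, a small GTPase of recycling endosomes, had values of 201 to 590 units in the layers and 1321 to 3136 in whole muscle on 217793_at, and of 259 to 504 units in the layers and 1478 to 2737 in whole muscle on 34478_at of U133A. Its differences were -2.72 ± 0.40 (adjusted p = 0.00033) and -2.49 ± 0.32 (adjusted p = 0.00015). TRIM14, a protein of innate immune signalling, differed by -1.96 ± 0.35 (adjusted p = 0.001) and -3.02 ± 0.44 (adjusted p = 0.00029). The size could differ widely even within this group. RPL37A, a protein of the large ribosomal subunit, had values of 243 to 390 units in the layers and 5130 to 6852 in whole muscle on 214041_x_at, a difference of -4.36 ± 0.22 (adjusted p = 9.6e-07). On its far brighter probe set 201429_s_at the values were 138020 to 150360 units in the layers and 165500 to 209990 in whole muscle and the difference only -0.32 ± 0.12 (adjusted p = 0.046). That call was lost in 6 of the 8 fits that left out 1 array, those without an orbital, a global or a lateral rectus array (adjusted p up to 0.12), and turned to 0.021 with centring (adjusted p = 0.9).

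Genes called in both directions within 1 table showed how far probe sets of a gene could part. MEF2C, a transcription factor of muscle genes, had 44950 and 50828 units in the orbital layer and 30700 and 38005 in the global layer on 209200_at of U133A. Lateral rectus gave 16986 and 19068 units, and medial rectus 15302 and 19416. On 207968_s_at of the same arrays it had 563 and 753 units in the orbital layer and 89 and 488 in the global layer. Lateral rectus gave 3785 and 4259 units, and medial rectus 2678 and 3217. The first was higher in the layers, at 1.20 ± 0.17 (adjusted p = 0.00028), and the other lower, at -3.04 ± 0.42 (adjusted p = 0.00024), each without overlap, and the remaining probe set, 209199_s_at, was higher (0.88 ± 0.15, adjusted p = 0.0007; 0.38 and not called after quantile normalization). USF3, a helix-loop-helix protein, lay between 2203 and 5483 units in whole muscle on 3 U133B probe sets, yet 227435_at was higher in the layers, at 3.49 ± 0.28 (adjusted p = 4.3e-06), 227433_at was higher, at 1.85 ± 0.20 (adjusted p = 3.7e-05), and 242508_at was lower, at -1.81 ± 0.23 (adjusted p = 0.0001). DDX17, an RNA helicase, was higher on 208718_at, with values of 45327 to 53860 units in the layers and 21043 to 26810 in whole muscle, and lower on 3 other U133A probe sets, at -1.93 ± 0.44 (adjusted p = 0.0038) on 208151_x_at, -2.92 ± 0.62 (adjusted p = 0.0027) on 208719_s_at and -2.27 ± 0.32 (adjusted p = 0.00027) on 213998_s_at. SDHC, a membrane subunit of respiratory complex II, was higher on 215088_s_at (1.49 ± 0.25, adjusted p = 0.00074) and lower on 216591_s_at (-1.78 ± 0.17, adjusted p = 3.4e-05). LAMP1, a lysosomal membrane protein, was higher on 201553_s_at (2.56 ± 0.28, adjusted p = 6.7e-05), lower on 201551_s_at (-2.24 ± 0.42, adjusted p = 0.0012) and at 0.03 ± 0.17 (adjusted p = 0.91) on 201552_at, which did not pass. NFIB, a transcription factor with 7 tested probe sets, was higher on 209289_at (1.83 ± 0.17, adjusted p = 3e-05) and lower on 211467_s_at (-3.13 ± 0.43, adjusted p = 0.00023), where 3 of 4 layer values were under the floor.

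How far the higher probe set of such a gene was also the brighter one depended on how brightness was taken. Both orders used here rest on values that also make the difference, so neither is independent of it. In 221 genes with U133A probe sets called opposite ways at the ends of their brightness order, the brighter one by the mean of all 8 arrays was the higher one in 183 (82.8%), and on U133B in 100 of 138 (72.5%). Ordered by whole muscle alone, the brighter one was the higher one in 111 of 204 genes (54.4%) on U133A and in 55 of 131 (42.0%) on U133B. Between the tables, the widest opposite calls were those of C21orf91, KCNC1, MAP2 and SH2D3C. The U133A calls of MAP2 (-0.89 ± 0.30, adjusted p = 0.03) and SH2D3C (-1.24 ± 0.47, adjusted p = 0.045) did not pass after centring (-0.55 and -0.90). That of MAP2 was also lost after quantile normalization (-0.31) and without global layer replicate 2 or any 1 of the medial rectus and orbital layer arrays (adjusted p up to 0.088), and that of SH2D3C without either orbital layer array (adjusted p up to 0.10). C21orf91 was lower on U133A, with 344 and 353 units in the orbital layer, 358 and 268 in the global layer, 959 and 534 in lateral rectus and 1262 and 1519 in medial rectus, and higher on U133B, with 5787 and 3274 units in the orbital layer and 7930 and 4666 in the global layer. Lateral rectus gave 232 and 160 units, and medial rectus 291 and 248, near the floor of 218 units. The differences of C21orf91 were -1.60 ± 0.41 (adjusted p = 0.0073) and 4.39 ± 0.38 (adjusted p = 7.4e-06). KCNC1, a voltage-gated potassium channel, gave -2.63 ± 0.53 (adjusted p = 0.002) on U133A and 2.95 ± 0.53 (adjusted p = 0.00099) on U133B.

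Gene classes were described by the brightest tested probe set of each gene, for which 19.1% of 7457 genes on U133A were called higher and 29.5% lower, and 24.8% of 6475 genes on U133B higher and 20.2% lower. The medians over all those genes were -0.16 and -0.04, or 0.04 and 0.06 after quantile normalization and 0.18 and 0.33 after centring. The classes and their members were drawn up with results of these arrays known, so counts and medians are descriptions beside these shares. The shares also went with brightness. In the brightest of the 5 groups of probe sets 42.7% were called higher and 12.0% lower on U133A, and 54.5% and 11.9% on U133B. Orbital and global layer arrays were each set against the same 4 whole muscle arrays where their medians stand side by side. Over the 149 probe sets whose values are given here, the lowest adjusted p for a difference between orbital and global arrays was 0.23 (limma, 2 arrays against 2 on each table).

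Splicing factors, which choose and join exons, were called higher more often than lower on both tables and under each of the 3 scalings. On U133A 23 of 52 were higher and 7 lower (median 0.47, or 0.38 with 20 and 6 after quantile normalization and 0.81 with 31 and 3 after centring). On U133B 12 of 20 were higher and 1 lower (median 1.15, or 0.91 with 10 and 1, and 1.52 with 13 and 1). The class was bright, with a median mean intensity of 5954 units on U133A and 4405 on U133B, beside 1750 and 2176 for all genes. Its shares called higher, 44.2% and 60.0%, stood beside 42.7% and 54.5% in the brightest group of all probe sets. The part of brightness in its counts was not tested. Of 15 members measured by different probe sets on each table, 12 had the same sign, 6 were called the same way and 1 the opposite way. Orbital and global medians were 0.47 and 0.44 on U133A and 1.22 and 1.20 on U133B. SRSF5, an SR protein that binds exonic enhancers, had 29936 and 34279 units in the orbital layer, 29172 and 23752 in the global layer, 9442 and 4844 in lateral rectus and 8420 and 5174 in medial rectus on 203380_x_at, and both of its U133A probe sets were higher, by 2.12 ± 0.23 (adjusted p = 5.7e-05) and 1.73 ± 0.30 (adjusted p = 0.00086). SON, a large scaffold of nuclear speckles, was higher on all 4 probe sets over both tables with the intensities as scaled, and on 2 of them under each of the 3 scalings, 214988_s_at of U133A (1.07 ± 0.15, adjusted p = 0.00023) and 226465_s_at of U133B (1.87 ± 0.27, adjusted p = 0.00022). After quantile normalization 213538_at (0.63 ± 0.18, adjusted p = 0.015) did not pass at 0.42 (adjusted p = 0.079), and 201086_x_at (0.39 ± 0.14, adjusted p = 0.041) turned to -0.19 (adjusted p = 0.31). The call on 201086_x_at was also lost in 5 of the 8 fits that left out 1 array, those without global layer replicate 1, lateral rectus replicate 1, either medial rectus array or orbital layer replicate 2 (adjusted p up to 0.10). Single genes of the class still split: 11 of 32 with several measurements had opposite calls, beside 711 of all 4439 such genes (16.0%). All measurements had the same sign in 12 of the 32 (37.5%), beside 42.8% of all such genes. SRSF7, another SR protein, was higher on 201129_at (1.62 ± 0.15, adjusted p = 2.6e-05) and lower on the dim 211439_at (-1.57 ± 0.22, adjusted p = 0.00026). HNRNPA2B1, which binds RNA and directs its transport, had 107120 and 111010 units in the orbital layer, 98382 and 111450 in the global layer, 21224 and 22038 in lateral rectus and 22203 and 16866 in medial rectus on 225932_s_at of U133B, a difference of 2.38 ± 0.19 (adjusted p = 4.3e-06). On U133A its probe set 205292_s_at gave 0.34 ± 0.14 (adjusted p = 0.054), which did not pass, and on U133B 244131_at was lower (-2.39 ± 0.51, adjusted p = 0.003). HNRNPL, another RNA-binding regulator of splicing, was lower on both of its U133A probe sets, among them 35201_at (-0.95 ± 0.15, adjusted p = 0.00057).

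Mitochondrial ribosomal proteins, which form the ribosomes inside mitochondria, were called higher mostly on U133B. There 19 of 27 were higher and 0 lower (median 1.05, or 0.66 after quantile normalization with 11 higher and 0 lower). The limma test gave the same 19 and 0 at an unadjusted p under 0.05. Their median mean intensity on U133B was 5928 units, and in the brightest group of all probe sets 54.5% were called higher there. The part of brightness in these counts was not tested. On U133A 12 of 41 were higher and 6 lower (median 0.17, or 0.27). A same sign was found for 6 of the 9 members tested on both tables, of which 2 were higher on both, and 0 were called opposite ways. MRPL37 had 9343 and 6004 units in the orbital layer and 9223 and 13728 in the global layer on 222993_at of U133B. Lateral rectus gave 2659 and 1306 units, and medial rectus 3001 and 2163, a difference of 2.08 ± 0.30 (adjusted p = 0.00027). MRPL20 of U133A had values of 5794 to 7807 units in the layers and 1227 to 1792 in whole muscle on 220526_s_at (2.09 ± 0.18, adjusted p = 1.9e-05). MRPL47 went both ways on U133B, at 1.01 ± 0.22 (adjusted p = 0.0031) on 223480_s_at and -2.66 ± 0.30 (adjusted p = 4.5e-05) on 223481_s_at, and the first was -0.022 after quantile normalization (adjusted p = 0.94).

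Proteasome subunits, parts of the particle that degrades tagged proteins, were tested mainly on U133A, where 12 of 30 were higher and 2 lower (median 0.53, or 0.34 with 12 higher and 3 lower after quantile normalization). Their median mean intensity on U133A was 5926 units. In the brightest group of all probe sets there, 42.7% were called higher and 12.0% lower, so the share of subunits called higher did not exceed that of bright probe sets. How far brightness entered these counts was not tested. In 7 of 13 subunits with several measurements all probe sets were above 0, in none all were below, and 4 were called higher on all. Of all 4439 genes with several measurements, 810 had all above 0 and 188 were called higher on all. PSMD4, a ubiquitin receptor of the proteasome, was higher on 3 probe sets, led by 200882_s_at (1.05 ± 0.19, adjusted p = 0.00093). Its call on 210460_s_at (0.53 ± 0.19, adjusted p = 0.034) did not pass after quantile normalization (0.23, adjusted p = 0.39), nor without global layer replicate 2, either medial rectus array or either orbital layer array (adjusted p up to 0.10). PSMA7, a subunit of the core particle, read 8379 and 8475 units in the orbital layer and 10433 and 9490 in the global layer on 201114_x_at. Lateral rectus gave 2803 and 2125 units, and medial rectus 2182 and 2070, a difference of 2.01 ± 0.17 (adjusted p = 1.5e-05). PSMD3 was lower, with 202 and 173 units in the orbital layer, 238 and 248 in the global layer, 2350 and 2097 in lateral rectus and 2037 and 2743 in medial rectus on its only tested probe set (-3.43 ± 0.29, adjusted p = 1.8e-05). On U133B 4 subunits were tested and 1 passed.

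Cytosolic ribosomal proteins were higher in count on both tables as scaled and after centring, but not after quantile normalization. On U133A 19 of 51 were higher and 8 lower with a median of 0.31, which was -0.03 after quantile normalization with 5 higher and 11 lower. On U133B 15 of 26 were higher and 3 lower with a median of 0.96, which was -0.01 with 3 higher and 5 lower. After centring 33 were higher and 2 lower on U133A (median 0.64), and 17 and 1 on U133B (1.33). The sign was the same for 20 of the 25 tested on both tables, yet 13 of the 25 were the identical probe set on both; of the other 12, 8 had the same sign. RPS25 on 200091_s_at, for example, had 26260 and 37237 units in the orbital layer and 15325 and 42750 in the global layer on U133A. Lateral rectus gave 12956 and 12608 units, and medial rectus 16645 and 9467. On U133B the same probe set had 99497 and 57279 units in the orbital layer and 38605 and 79755 in the global layer. Lateral rectus gave 19142 and 12059 units, and medial rectus 22149 and 12896. The differences were 1.16 ± 0.29 (adjusted p = 0.006) and 2.01 ± 0.30 (adjusted p = 0.00028), or 0.61 and 0.80 after quantile normalization, neither of which then passed. RPL38, another protein of the large subunit, was lower on 221943_x_at (-2.15 ± 0.25, adjusted p = 0.0001). Translation factors gave 12 higher and 5 lower of 36 on U133A (median 0.12) and 4 higher and 2 lower of 10 on U133B (0.28). Their medians were 0.00 and 0.04 after quantile normalization and 0.46 and 0.64 after centring. EIF4B was lower on all 3 of its probe sets, among them 211937_at (-1.11 ± 0.17, adjusted p = 0.0004), but after centring 211938_at (-0.86 ± 0.25, adjusted p = 0.013) and 219599_at (-0.97 ± 0.26, adjusted p = 0.009) did not pass, at -0.52 and -0.63. EIF4E, the cap-binding protein, was lower on 201435_s_at (-1.46 ± 0.21, adjusted p = 0.00031) and higher on 201437_s_at (1.09 ± 0.20, adjusted p = 0.0012).

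Genes of energy supply leaned higher on U133A. Most of that lean was gone after quantile normalization, though fatty acid genes kept 9 higher and 3 lower calls, and centring made it larger. Fatty acid uptake and oxidation had 11 of 23 higher and 4 lower (median 0.48, or 0.11 with 9 and 3). Respiratory complex I had 8 of 28 higher and 0 lower (0.39, or 0.14 with 4 and 3), and 13 and 1 by limma at an unadjusted p under 0.05. Complexes III to V had 9 of 34 higher and 2 lower (0.20, or -0.16 with 4 and 7), glycolysis and glycogen 9 of 23 and 6 (0.33, or -0.02 with 2 and 7), and the TCA cycle 8 of 23 and 6 (0.19, or 0.00 with 5 and 6). After centring these classes had, in the same order on U133A, 14 higher and 2 lower, 19 and 0, 19 and 2, 12 and 3, and 12 and 5. On U133B 5 to 10 genes of each of these classes were tested. Fatty acid genes had 2 of 5 higher and 1 lower there (median 0.85, or 0.60 with 1 and 1 after quantile normalization). Complex I had 3 of 10 and 2 (0.04, or -0.40 with 0 and 3), and complexes III to V 3 of 7 and 0 (0.22, or 0.55 with 1 and 0). Glycolysis had 2 of 6 and 1 (0.28, or 0.25 with 1 and 1), and the TCA cycle 1 of 5 and 0 (0.51, or 1.06 with 1 and 0). In complexes III to V 10 of 16 genes with several measurements had all on 1 side of 0, and in complex I 2 of 9, beside 42.8% of all genes. ACAA2, which closes the cycle of fatty acid oxidation, was higher on both tables, with values of 12000 to 19538 units in the layers and 3873 to 7919 in whole muscle on 202003_s_at of U133A (1.54 ± 0.23, adjusted p = 0.00036). On 241114_s_at of U133B its values were 3035 to 5651 units in the layers and 1802 to 2988 in whole muscle (1.01 ± 0.27, adjusted p = 0.0092). CD36, a fatty acid carrier of the cell surface, was lower on 206488_s_at of U133A (-2.21 ± 0.26, adjusted p = 0.00011) and higher on 228766_at of U133B (1.55 ± 0.33, adjusted p = 0.0032), where the call did not pass after quantile normalization (0.60). HADHA, of the trifunctional protein, was lower on 208629_s_at, with values of 829 to 1804 units in the layers and 3774 to 7869 in whole muscle (-2.30 ± 0.29, adjusted p = 0.00013), and higher on the brighter 208631_s_at (0.48 ± 0.16, adjusted p = 0.028), a call lost in 4 of the 8 fits without 1 array, those without replicate 2 of a group (adjusted p up to 0.089), and reversed in sign after quantile normalization (-0.050, adjusted p = 0.83). PDHA1, of pyruvate dehydrogenase, was higher on 200980_s_at, with 35191 and 35968 units in the orbital layer, 37464 and 39717 in the global layer, 15063 and 14932 in lateral rectus and 13200 and 13963 in medial rectus (1.38 ± 0.13, adjusted p = 2.6e-05). CS, citrate synthase, was lower, with 11439 and 11292 units in the orbital layer and 12464 and 12187 in the global layer on 208660_at. Lateral rectus gave 21556 and 23442 units, and medial rectus 28639 and 19207, a difference of -0.96 ± 0.15 (adjusted p = 0.0005). PKM, pyruvate kinase, was also lower (-1.42 ± 0.26, adjusted p = 0.0012, on 201251_at).

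Of the genes around GLUT4, RAB10, a GTPase that moves GLUT4 vesicles, was higher on 2 U133B probe sets (2.04 ± 0.24, adjusted p = 6.2e-05, on 222980_at and 0.83 ± 0.18, adjusted p = 0.0034, on 222981_s_at), the latter at -0.39 and without a call after quantile normalization. IRS2, an insulin receptor substrate, had 29001 and 26960 units in the orbital layer and 52625 and 43689 in the global layer on 209185_s_at. Lateral rectus gave 10474 and 6708 units, and medial rectus 11498 and 8240, a difference of 2.02 ± 0.24 (adjusted p = 0.0001). SLC2A4, which is GLUT4 itself, was lower, with 1114 and 1151 units in the orbital layer and 786 and 1072 in the global layer on 206603_at. Lateral rectus gave 2359 and 2310 units, and medial rectus 2230 and 3006, a difference of -1.27 ± 0.20 (adjusted p = 0.00052). As a class 4 of 13 were higher and 5 lower on U133A (median -0.05, or 0.28 with 4 and 3 after quantile normalization and 0.29 with 4 and 3 after centring), and 1 of 8 and 3 on U133B (-0.38, or -0.17 and -0.01). Mitochondrial import and dynamics had 12 of 30 higher and 3 lower on U133A (median 0.35, or 0.26 after quantile normalization) and 3 of 4 higher on U133B. In this class MFN2, which fuses mitochondria, was higher on 201155_s_at (0.82 ± 0.15, adjusted p = 0.0013; 0.42 and not called after quantile normalization) and lower on 216205_s_at (-2.29 ± 0.21, adjusted p = 2.5e-05).

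Contractile genes were measured mostly on U133A. Their calls moved with the scaling, and no test compared the slow with the fast isoforms. Of 14 slow isoforms 5 were higher and 1 lower (median 0.72, or 0.26 with 1 higher and 2 lower after quantile normalization and 1.06 with 7 and 0 after centring), with medians of 1.02 for the orbital and 0.00 for the global arrays. Of 14 fast isoforms 0 were higher and 3 lower, and 1 and 3 by limma at an unadjusted p under 0.05 (median -0.04, or -0.22 with 0 and 3; 0.30 with 4 higher and 3 lower after centring). MYH7, the slow myosin heavy chain, had 9686 and 7863 units in the orbital layer and 6535 and 9442 in the global layer on 216265_x_at. Lateral rectus gave 4745 and 3791 units, and medial rectus 5982 and 3058, a difference of 0.96 ± 0.22 (adjusted p = 0.0041). MYL1, a fast light chain, had 169630 and 147320 units in the orbital layer and 183420 and 169280 in the global layer on 209888_s_at. Lateral rectus gave 306100 and 269170 units, and medial rectus 261470 and 300230, a difference of -0.76 ± 0.12 (adjusted p = 0.0005). TNNC2, fast troponin C, had -0.78 ± 0.14 (adjusted p = 0.001) on 205388_at, and ATP2A1, the fast calcium pump, -0.96 ± 0.18 (adjusted p = 0.0013) on 205444_at. ATP2A2, the slow pump, was higher on 212361_s_at (0.90 ± 0.16, adjusted p = 0.00092) and lower on 209186_at (-1.12 ± 0.30, adjusted p = 0.0099) and on 239996_x_at of U133B (-3.10 ± 0.54, adjusted p = 0.00086). After quantile normalization the calls of MYL1 (-0.20) and of both U133A probe sets of ATP2A2 (0.37 and -0.65) did not pass. Other members went against these directions. TPM1, of the fast list, was higher on 206116_s_at under each of the 3 scalings, and lower on 210986_s_at only with the intensities as scaled. PLN, of the slow list, was lower on 204938_s_at, though not called after centring. The other tested probe sets of TPM1 and PLN were not called. Sarcomere scaffold genes had 5 of 13 higher and 2 lower on U133A (median 0.33, or -0.02) and 5 of 11 and 1 on U133B (0.70, or 0.49). ACTN2, alpha-actinin of the Z disc, was higher on 203863_at with 41053 and 46558 units in the orbital layer, 29640 and 23866 in the global layer, 11548 and 13045 in lateral rectus and 13793 and 13374 in medial rectus (1.40 ± 0.20, adjusted p = 0.00027), and its probe set 203861_s_at, at -0.30 ± 0.16 (adjusted p = 0.15), did not pass. After quantile normalization 203863_at stayed higher and 203861_s_at was called lower (-0.84, adjusted p = 0.0015). ACTN2 was also higher on 203862_s_at (0.51 ± 0.16, adjusted p = 0.018) and 203864_s_at (0.67 ± 0.22, adjusted p = 0.027), calls that did not pass after quantile normalization (0.21 and 0.14). The first was lost without medial rectus replicate 2 (adjusted p = 0.053), and the second in 5 of the 8 fits without 1 array, those without lateral rectus replicate 2 or any 1 of the medial rectus and orbital layer arrays (adjusted p up to 0.078).

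Ubiquitin ligases and atrophy regulators, which set muscle mass, had 6 of 10 higher and 2 lower on U133B (median 1.23, or 0.51 with 3 and 2 after quantile normalization), against 4 of 14 and 1 on U133A (-0.14, or -0.09 with 3 and 2, and 0.20 with 5 and 1 after centring). Satellite cell and myogenic factors, which set muscle identity, had 2 of 4 higher and 0 lower on U133B, also at an unadjusted limma p under 0.05, and 5 of 12 higher and 3 lower on U133A (median 0.06, or 0.25 with 3 and 2 after quantile normalization and 0.40 with 5 and 3 after centring). FOXO1, a transcription factor of muscle wasting, had 5091 and 4742 units in the orbital layer and 4222 and 3886 in the global layer on 202723_s_at of U133A. Lateral rectus gave 851 and 385 units, and medial rectus 1074 and 467, a difference of 2.81 ± 0.30 (adjusted p = 6.2e-05). Its other probe set, 202724_s_at, gave -0.15 ± 0.17 (adjusted p = 0.47) and did not pass. FBXO32, the muscle ubiquitin ligase atrogin-1, was higher on its brightest U133B probe sets, 225328_at (1.67 ± 0.20, adjusted p = 7.6e-05) and 225803_at (1.66 ± 0.30, adjusted p = 0.0011), and lower on 225345_s_at (-1.11 ± 0.31, adjusted p = 0.013); none of the 3 passed after quantile normalization (0.37, 0.43 and -0.98), and 225345_s_at did not pass after centring (-0.75). KLHL41, a stabiliser of sarcomeres, was higher on U133A (0.60 ± 0.19, adjusted p = 0.019) and lower on U133B (-1.75 ± 0.30, adjusted p = 0.00071). Its U133A call was lost without lateral rectus replicate 2 (adjusted p = 0.061), without orbital layer replicate 2 (adjusted p = 0.057) and after quantile normalization (0.09). SIX4, a homeobox factor of muscle, had 21160 and 18714 units in the orbital layer and 22338 and 28746 in the global layer on 229796_at. Lateral rectus gave 4231 and 1484 units, and medial rectus 4167 and 744, a difference of 3.42 ± 0.45 (adjusted p = 0.00014). MYOG, myogenin, was lower on 207282_s_at (-2.03 ± 0.43, adjusted p = 0.0025).

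Chaperones and stress genes were mixed. Of heat shock proteins and chaperones 11 of 35 were higher and 5 lower on U133A and 3 of 10 and 2 on U133B, and 4 of 19 with several measurements lay on 1 side of 0. HSPB6, a small heat shock protein of muscle, was lower on both tables, with 4515 and 2519 units in the orbital layer and 2719 and 3805 in the global layer on 214767_s_at of U133A. Lateral rectus gave 13471 and 12185 units, and medial rectus 14343 and 13979. On 226304_at of U133B it had 7896 and 8536 units in the orbital layer and 4801 and 8792 in the global layer. Lateral rectus gave 20786 and 17949 units, and medial rectus 25411 and 16710. Its differences were -2.03 ± 0.20 (adjusted p = 3.5e-05) and -1.45 ± 0.23 (adjusted p = 0.00045), and the groups overlapped on neither. HSP90AA1 was higher on 211969_at (2.47 ± 0.20, adjusted p = 1.1e-05), and its 3 other tested probe sets did not pass. Of immediate early and stress genes 10 of 27 were higher and 5 lower on U133A and 1 of 5 each way on U133B. GADD45A, a growth arrest gene, was higher on 203725_at (1.54 ± 0.26, adjusted p = 0.00077).

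Genes of the nerve and the neuromuscular junction were lower more often than higher on U133A. Their median mean intensities there were 1687 and 1434 units, beside 1750 for all genes. Of 12 Schwann cell and nerve genes 1 was higher and 8 lower (median -0.70, or -0.39 with 1 and 5 after quantile normalization and -0.36 with 1 and 4 after centring). Of 13 junction genes 3 were higher and 8 lower (median -0.68, or -0.44 with 2 and 3, and -0.34 with 4 and 4). In 5 of 8 junction genes with several measurements all were below 0, beside 1089 of all 4439 such genes. On U133B 4 and 3 such genes were tested, with 1 higher and 1 lower, and 1 higher and 0 lower (also at an unadjusted limma p under 0.05). ACHE, the acetylcholinesterase of the synaptic cleft, had 182 and 266 units in the orbital layer and 511 and 268 in the global layer on 205377_s_at. Lateral rectus gave 1542 and 2396 units, and medial rectus 2251 and 1619, a difference of -2.75 ± 0.36 (adjusted p = 0.00017). On 205378_s_at ACHE was also lower (-1.17 ± 0.31, adjusted p = 0.009). CHRNA1, the alpha subunit of the muscle acetylcholine receptor, was lower on 206633_at (-0.65 ± 0.17, adjusted p = 0.0081) and 211039_at (-1.42 ± 0.35, adjusted p = 0.0057). PRPH, a filament of peripheral nerve, had values of 159 to 769 units in the layers and 1937 to 2591 in whole muscle on 213847_at (-2.79 ± 0.42, adjusted p = 0.00035). GFAP and GAP43 were lower too. TUBB3, the brightest nerve gene on U133A, was higher on 202154_x_at under each of the 3 scalings. NCAM1 was lower on 217359_s_at of U133A and higher on 227394_at of U133B, the latter not after quantile normalization. Nerve genes summed to 28969 to 33963 units in the layers and 34022 to 39724 in whole muscle on U133A. On U133B the sums were 18854 to 28876 and 17883 to 21949. UTRN, utrophin, a relative of dystrophin at the junction, was lower on both U133A probe sets (-1.10 ± 0.25, adjusted p = 0.0037, on 213022_s_at and -1.68 ± 0.42, adjusted p = 0.0066, on 213023_at) and higher on the brighter 225093_at of U133B, with 41967 and 29739 units in the orbital layer, 42153 and 39451 in the global layer, 7546 and 12350 in lateral rectus and 8328 and 10794 in medial rectus (1.99 ± 0.21, adjusted p = 3.2e-05). After quantile normalization 205378_s_at of ACHE (-0.69), 211039_at of CHRNA1 (-0.82) and both U133A probe sets of UTRN (-0.55 and -1.06) no longer passed, nor did 206633_at of CHRNA1 after centring (-0.31).

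Endothelial genes were lower more often than higher on U133A and higher more often than lower on U133B. They had 2 of 21 higher and 6 lower on U133A (median -0.34, or -0.11 with 1 and 3 after quantile normalization and 0.00 with 2 and 2 after centring) and 4 of 7 higher and 0 lower on U133B, also at an unadjusted limma p under 0.05 (1.19, or 0.96), and 1 of the 5 tested on both tables had the same sign. The summed intensity of all measured endothelial genes was 64422 to 81324 units in the layers and 63495 to 83415 in whole muscle on U133A, and 34820 to 40896 and 14252 to 21444 on U133B. FLT1, a VEGF receptor, had 9730 and 13154 units in the orbital layer and 7706 and 10831 in the global layer on 226497_s_at of U133B. Lateral rectus gave 4467 and 1878 units, and medial rectus 4236 and 2290, a difference of 1.76 ± 0.30 (adjusted p = 0.00066). On 222033_s_at of U133A FLT1 gave -0.26 ± 0.30 (adjusted p = 0.48), which did not pass. S1PR1, a receptor of endothelium, was lower with 1348 and 1167 units in the orbital layer and 1461 and 1178 in the global layer on 204642_at. Lateral rectus gave 3075 and 2750 units, and medial rectus 4418 and 3134, a difference of -1.36 ± 0.20 (adjusted p = 0.00031). Pericyte and smooth muscle genes had 5 of 14 higher and 4 lower on U133A and 2 of 3 and 1 on U133B, and MYH11, smooth muscle myosin, was higher on 201497_x_at (2.40 ± 0.31, adjusted p = 0.00016).

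Extracellular matrix and fibroblast genes had 8 of 46 higher and 14 lower on U133A (median -0.25, or -0.15 with 4 and 14 after quantile normalization, and 0.09 with 9 and 8 after centring) and 6 of 12 higher and 3 lower on U133B (1.05, or 0.90). Of the 10 tested on both tables, 7 had the same sign, 1 was called the same way and 0 opposite ways. Their summed intensity was 417600 to 585350 units in the layers and 445200 to 519990 in whole muscle on U133A, and 84156 to 122130 and 35152 to 42188 on U133B. COL1A1, the main chain of fibrillar collagen, was lower on 3 of 4 probe sets, with 22188 and 13659 units in the orbital layer and 6636 and 12693 in the global layer on 202310_s_at. Lateral rectus gave 33415 and 55628 units, and medial rectus 33636 and 31403, a difference of -1.57 ± 0.31 (adjusted p = 0.0017). On 217430_x_at the difference was -3.19 ± 0.21 (adjusted p = 4.1e-06). FBN1, fibrillin of elastic microfibrils, was higher on 202766_s_at with 40945 and 42185 units in the orbital layer, 31507 and 24407 in the global layer, 6502 and 7196 in lateral rectus and 6408 and 6723 in medial rectus (2.34 ± 0.18, adjusted p = 9.5e-06). On 202765_s_at it was lower (-1.49 ± 0.48, adjusted p = 0.023), a call that passed neither after quantile normalization (-0.93) nor after centring (-1.15), nor without global layer replicate 2, lateral rectus replicate 2 or medial rectus replicate 1 (adjusted p up to 0.084). TIMP2, an inhibitor of matrix proteases, was higher on 231579_s_at of U133B (2.02 ± 0.21, adjusted p = 3.1e-05) and at 0.27 ± 0.24 (adjusted p = 0.37) on 224560_at, which did not pass.

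**Figure D4:**
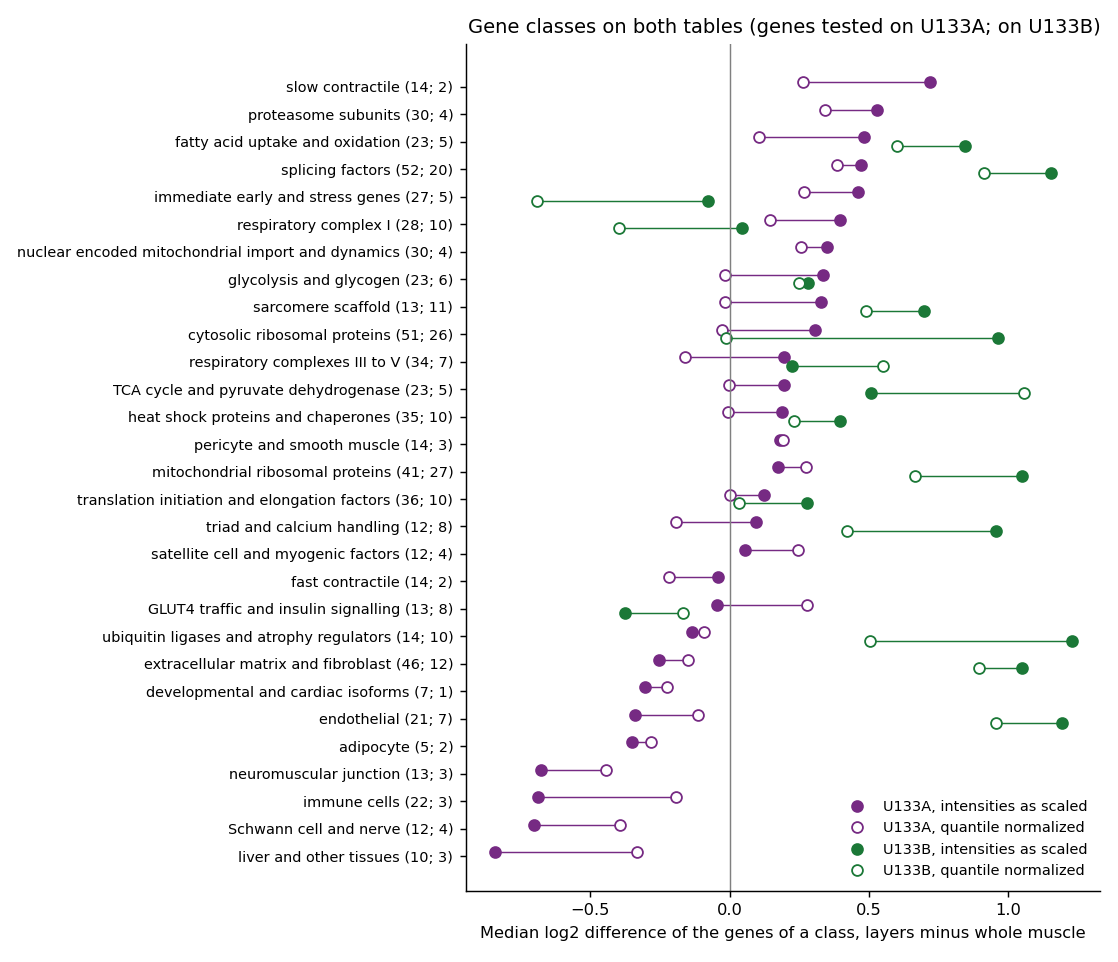
Median log2 difference (layers minus whole muscle) of gene classes with at least 5 genes tested on the table, U133A in purple and U133B in green; filled points use intensities as scaled and open points quantile-normalized ones, and the numbers after each name are genes tested on U133A and on U133B. Splicing factors, mitochondrial ribosomal proteins and fatty acid genes lie to the right on both tables in both versions, as do translation factors, which lie close to 0 after quantile normalization. The medians of endothelial and matrix genes lie left on U133A and right on U133B in both versions (1 of 5 endothelial and 7 of 10 matrix genes tested on both had the same sign). Nerve, junction, immune and liver genes lie left on U133A.

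Markers of immune cells, red blood cells, lacrimal gland and epithelium were called lower in the layers more often than higher. Of 22 tested immune genes on U133A 2 were higher and 10 lower (median -0.69, or -0.19 with 1 and 7 after quantile normalization, and -0.35 with 3 and 8 after centring), and the summed intensity of the 32 measured was 45142 to 53395 units in the layers and 58891 to 70885 in whole muscle. CXCR4, a chemokine receptor, was lower on both probe sets (-0.92 ± 0.25, adjusted p = 0.011, on 209201_x_at, a call that did not pass at -0.64 after quantile normalization and at -0.58 after centring, and -0.93 ± 0.18, adjusted p = 0.0013, on 211919_s_at). HLA-DRA, of antigen-presenting cells, was lower on 208894_at with 4186 and 3622 units in the orbital layer, 2426 and 4574 in the global layer, 7542 and 12175 in lateral rectus and 7752 and 8714 in medial rectus (-1.30 ± 0.23, adjusted p = 0.00086). Of 4 tested lacrimal gland and epithelium genes on U133A 0 were higher and 3 lower, the same as by limma at an unadjusted p under 0.05, with 0 called after quantile normalization. The 21 measured summed to 4780 to 6445 units in the layers and 10107 to 12455 in whole muscle. Of those 21, 9 were under the floor in all 4 layer arrays, among them EPCAM, KRT19, AQP5 and LTF, and 2 were under it in all whole muscle arrays. Over all probe sets of U133A, a mean of 24.8% per layer array and 15.2% per whole muscle array were under the floor. These shares are per array, not over all 4 arrays of a group. MUC1, an epithelial mucin, was lower on 207847_s_at (-1.68 ± 0.37, adjusted p = 0.0032). Adipocyte genes were not called lower more often than higher. Of 5 tested on U133A 1 was higher and 1 lower, or 2 and 0 after quantile normalization and after centring, and of 2 tested on U133B 0 were called, also at an unadjusted limma p under 0.05. LPL, lipoprotein lipase and the brightest of them, was higher (1.33 ± 0.26, adjusted p = 0.0017). Of the 14 measured on U133A ADIPOQ, ADRB3, LEP and PLIN1 were under the floor in all layer arrays, and none was under it in all whole muscle arrays. The sum over the 14 was 12350 to 25744 units in the layers and 13074 to 17431 in whole muscle. Of 4 tested red blood cell genes on U133A 2 were lower and 0 higher, also at an unadjusted limma p under 0.05, and 1 was lower after quantile normalization and after centring. The summed intensity of the 7 measured, of which the globin HBB was brightest, overlapped between the groups, at 22727 to 30440 units in the layers and 15450 to 37354 in whole muscle. The 2 lower were CA1 (-1.74 ± 0.29, adjusted p = 0.00068, on 205949_at) and AHSP (-1.90 ± 0.44, adjusted p = 0.0041, on 219672_at).

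A list of genes of liver and other tissues that muscle is not known to express was also called lower more often than higher. On U133A 0 of 10 were higher and 4 lower, and 1 and 5 by limma at an unadjusted p under 0.05 (median -0.84, or -0.33 with 1 and 3 after quantile normalization), and on U133B 0 of 3 were higher and 2 lower (0 and 3 unadjusted). All 4 with several measurements had them all below 0, beside 1089 of all 4439 such genes. APOB, of liver lipoproteins, had 414 and 244 units in the orbital layer and 503 and 284 in the global layer on 205108_s_at. Lateral rectus gave 1236 and 1222 units, and medial rectus 1302 and 1233, a difference of -1.85 ± 0.34 (adjusted p = 0.0011). PRL, the pituitary hormone prolactin, had 486 and 436 units in the orbital layer and 550 and 413 in the global layer on 205445_at. Lateral rectus gave 1500 and 1302 units, and medial rectus 1611 and 1755, a difference of -1.71 ± 0.25 (adjusted p = 0.00031). The 27 genes of this list measured on U133A summed to 9201 to 15485 units in the layers and 15108 to 22133 in whole muscle. The 10 tested on U133A had a median mean intensity of 1057 units, beside 1750 for all genes tested by their brightest probe set. In that range lower calls outnumbered higher ones over all probe sets. The part of brightness in the counts of nerve, junction, immune and epithelial genes was not tested.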

How the data were processed

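Rhesus muscle RNA was hybridised to 16 arrays of human probes, whose match to macaque transcripts was not examined here. Each deposited value is an intensity per probe set on a linear scale, as the authors' software summarised it. The summary software and detection calls are not given in the sources used here. On each array the mean of the intensities, with 2% trimmed at each end, was close to 1500 units, so the deposited intensities were taken as scaled, and no further scaling was done in the main analysis. The 68 control probe sets of each array type were left out of tests. Intensities were floored at the 20th percentile over all arrays of a table (146 units on U133A, 218 on U133B), and probe sets with a mean over the 8 arrays above the 50th percentile (654 and 802 units) were tested on the log2 scale. The filter kept 11524 of 22215 and 11975 of 22577 probe sets. The number of arrays limits the precision, and the files give no depth.

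Layers and whole muscle were compared with limma 3.58.1 in R 4.3.3, with an intensity trend in the variance model, and p-values were adjusted by Benjamini-Hochberg over all tested probe sets of a table at a threshold of 0.05. The tables were fitted separately. Control ratios were tested with an exact permutation test in SciPy 1.17.1. Probe sets were named from the platform annotation: on U133A 19071 of 22283 had 1 gene symbol, 1043 several and 2169 none, and on U133B 15432 of 22645, 554 and 6659. Only those with 1 symbol were named. In gene lists, the brightest tested probe set stood for a gene.

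Named genes were the 4 markers, the 10 genes per direction with the largest median among those with at least 2 probe sets all called that way, up to 3 per direction of each gene list, preferring genes with all probe sets called, and the 6 and 4 genes with the widest opposite calls within and between tables. The members, lists and rules were chosen with earlier results of these data known. Alternatives were quantile normalization, median centring, other floors and filters, no variance trend, 4 groups in the fit, the titles' replicate numbers as a block, the mean of a gene's probe sets, and leaving out each array. A filter on mean log2 values was added after seeing the data. The limma script recovered known changes in simulated data before use. In those data few probe sets changed, about as often up as down, and the changes had no trend with brightness. No scaling step was simulated. The simulation therefore cannot show how the fit behaves where many probe sets differ and calls move with the scaling.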

Additional observations from a re-analysis of the deposited data

Results flagged for a closer look

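In 27 of 314 groups of 4 arrays checked, 1 array stood apart from the other 3 by more than the 95% limit of Dixon's test, and chance alone marks about 1 group in 20. Of the quality measures, medial rectus replicate 2 on U133A stood low, with 13.1% of probe sets under the floor.

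Among whole muscle arrays, values that stood apart as low were those of HHIP on 237466_s_at in lateral rectus replicate 2 (134 units), RPL37A on 214041_x_at in medial rectus replicate 2 (5130), DDX17 on 208718_at in medial rectus replicate 1 (21043), HNRNPA2B1 on 225932_s_at in medial rectus replicate 2 (16866), HNRNPL on 35201_at in medial rectus replicate 2 (6510) and EIF4B on 211938_at in lateral rectus replicate 1 (6539). High values were those of RTN4IP1 in lateral rectus replicate 1 (331 units), KCNC1 on 230547_at in medial rectus replicate 2 (591), RPL38 on 221943_x_at in lateral rectus replicate 1 (15706), ATP2A2 on 212361_s_at in lateral rectus replicate 1 (22766), COL1A1 on 202310_s_at in lateral rectus replicate 2 (55628), SON on 201086_x_at in lateral rectus replicate 2 (16050) and AHSP in medial rectus replicate 2 (2465).

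Among layer arrays, low values were those of MYH8 on 34471_at in global layer replicate 2 (39603 units), ZNF462 on 244007_at in orbital layer replicate 2 (3806), NRAP on 235313_at in global layer replicate 1 (588), DDX17 on 208719_s_at in global layer replicate 1 (49), C21orf91 on 220941_s_at in global layer replicate 2 (268), HSP90AA1 on 211969_at in global layer replicate 1 (21832) and FLT1 on 222033_s_at in orbital layer replicate 1 (1373). High values were those of TRIM14 on 211044_at in global layer replicate 1 (250 units), NFIB on 211467_s_at in orbital layer replicate 2 (217), KCNC1 on 208477_at in orbital layer replicate 1 (538), ATP2A2 on 239996_x_at in global layer replicate 2 (267), EIF4B on 219599_at in global layer replicate 1 (2273) and FBXO32 on 225328_at in orbital layer replicate 1 (106746).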

How the results depend on the processing

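Counts of called probe sets stayed within 1.5 times of the 5680 on U133A and 5045 on U133B under the other scalings, floors and variance models and with 4 groups in the fit. They were 2771 and 3198 when probe sets had to exceed the 75th percentile, which tests fewer of them. Genes with all probe sets called 1 way numbered 392, and 234 with no filter. Genes called the same way on both tables numbered 233, and 138 with the filter at the 75th percentile. Without each array in turn, the counts were 4996 to 5742 on U133A, 4150 to 4580 on U133B, 319 to 373 for all probe sets and 188 to 222 for both tables. With the filter on mean log2 values, added after seeing the data, the 4 counts were 5116, 4442, 371 and 208.

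Whether the titles' replicate numbers pair the arrays was not settled. They could be used for 5 arrays on U133A and 7 on U133B. The difference between numbers 1 and 2 correlated at 0.22 between the orbital and global layer on U133A. On U133B it correlated between groups at 0.06 to 0.10. With the replicate block the counts were 2023 on U133A, 4226 on U133B, 167 for all probe sets and 104 for both tables, with fewer arrays in the fit.

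Of the called probe sets of named genes, 7 turned sign with another scaling. With median centring RPL37A on U133A was 0.021 and ACTC1 on U133A 0.035, and after quantile normalization HADHA on U133A was -0.050, MRPL47 on U133B -0.022, PSMB2 on U133B -0.36, RAB10 on U133B -0.39 and SON on U133A -0.19. The cause was not tested beyond the scaling itself. Of 343 called probe sets of named genes, 294 kept the call without every single array, 248 after quantile normalization and 313 after centring. Differences of dim probe sets are limited by the floor.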
